A study of Mus musculus with 3 samples.

Results

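The IGF1 axis was followed in whole mouse skin through 10 genes: the growth factor gene Igf1, its receptor gene Igf1r, the binding protein genes Igfbp2, Igfbp3, Igfbp4, Igfbp5, Igfbp6 and Igfbp7, and the insulin receptor substrate genes Irs1 and Irs2. They were chosen by name, and all 10 were found among the 21877 gene rows listed at all 3 ages. RNA sequencing values came from skin of mice of the inbred strain FVB at 3 ages: E18.5 (embryonic day 18.5, just before birth), P3 (pups 3 days old) and 10 weeks (adult). All 3 columns are headed WT, and the labels name no allele and no treatment. Each age had 1 value per gene, headed as an average, although 2 biological replicates are stated for each age in the design text. No value of a single animal was used here, so no difference below has a replicate check, a standard deviation or a p-value.

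IGF1 is a secreted growth factor that the liver makes under growth hormone and that connective tissue cells of many organs make locally. It binds the IGF1 receptor, a tyrosine kinase, which phosphorylates the docking proteins IRS1 and IRS2 and through them engages PI3-kinase, AKT and mTOR. Most extracellular IGF is held by binding proteins, which prolong its life and limit or deliver it to the receptor. In skin, IGF1 from dermal cells is known as a growth signal for keratinocytes and hair follicles.

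Values are FPKM, fragments scaled to transcript length and to the number of mapped fragments, so levels of different genes can be compared per length. A pseudocount of 1 was added to FPKM, and a difference is the log2 value of the later age minus that of the earlier one. The words "higher" and "lower" mean a size of 1 or more in log2 units, a 2-fold change of FPKM + 1. Genes whose FPKM never reached 1 were left out, and all 10 members passed. Sequencing depth is unknown. The epidermal markers Krt5, Krt14, Trp63, Dsp, Col17a1 and Lor were all present at each age, the lowest of these values being 30.1 FPKM. Skin is a mixture, and fewer cells of a type and less RNA per cell cannot be told apart in these values. The E18.5 table had Y-linked genes at 7.13 to 42.1 FPKM and Xist at 0.0433 FPKM, while P3 and 10 weeks had Xist at 64.6 and 73.0 FPKM. Age and sex therefore cannot be told apart in comparisons with E18.5. All 10 members are autosomal, and whether their values differ by sex was not tested.

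Igf1 (mm9 chromosome 10, 87321801 to 87399792) measured 24.2 FPKM before birth, 5.65 in the newborn and 45.2 in the adult. The newborn value was the low one, and the adult value was the highest of the 3. Igf1 was lower at P3 than at E18.5, with a log2 difference of -1.92, and higher at 10 weeks than at P3, with 2.80. From E18.5 to 10 weeks the difference of 0.87 was under the threshold. Among the 14653 genes left by the 1 FPKM filter with values at all ages, Igf1 ranked at percentile 78.1, then 37.4, then 85.3.

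The receptor gene moved little beside this. Igf1r (chromosome 7, 75097143 to 75378553) stood at 4.13, 5.07 and 4.82 FPKM, so its highest value was 1.23 times its lowest, against 8.01 times for Igf1. Since both genes were read in the same table at each age, their ratio does not depend on how the ages are scaled. FPKM of Igf1 was 5.87 times that of Igf1r in the embryo, 1.11 times in the newborn and 9.38 times in the adult.

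The docking protein genes also varied little. Irs1 (chromosome 1, 82229680 to 82288014) stood at 14.4, 10.9 and 12.3 FPKM, and Irs2 (chromosome 8, 10986964 to 11008430) at 3.40, 5.06 and 6.0 FPKM. Irs1 was the more abundant of the pair at each age, by 4.22, 2.14 and 2.05 times. Igf1r, Irs1, Irs2 and Igfbp4 passed the 2-fold threshold in none of the 3 comparisons, as did 60.3% of all genes compared.

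**Figure D1:**
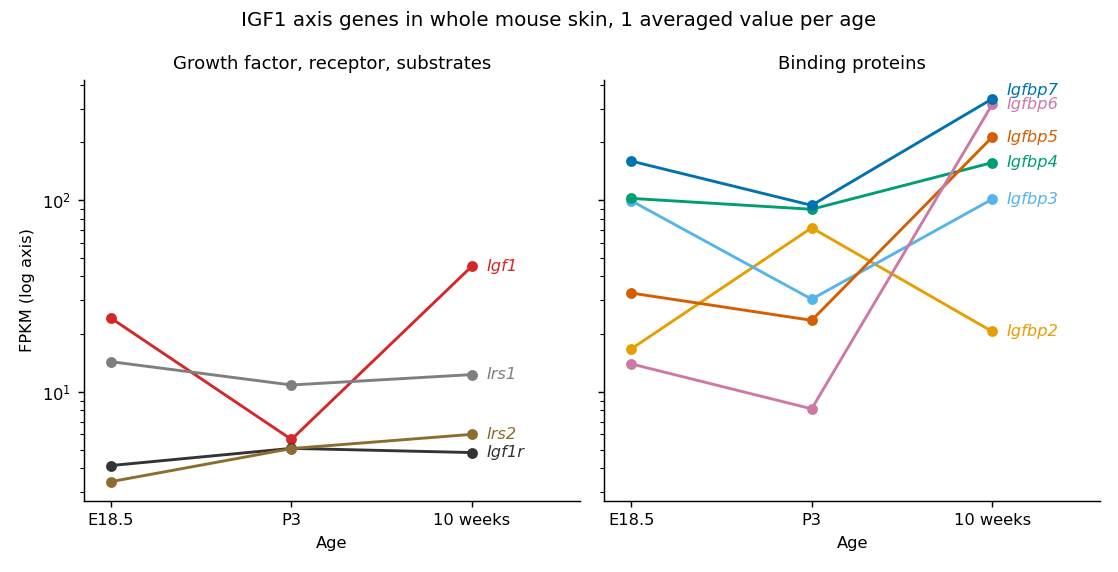
FPKM of the 10 genes (vertical log axis) at E18.5, P3 and 10 weeks (horizontal axis), 1 point per gene and age, with the growth factor, receptor and substrates on the left and the binding proteins on the right. Igf1 dips to 5.65 FPKM at P3, Igfbp2 peaks there at 71.7 FPKM, and Igfbp5 and Igfbp6 climb to 213 and 315 FPKM at 10 weeks, while Igf1r stays between 4.13 and 5.07 FPKM.

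The binding protein genes split into several courses. Igfbp3 encodes the main carrier of IGF in blood, where it joins IGF and the acid-labile subunit in one complex. It measured 99.2, 30.4 and 101 FPKM in order of age (chromosome 11, 7106096 to 7113926). Its values before birth and in the adult were nearly equal, and only the newborn value was low. The log2 difference was -1.67 from E18.5 to P3, 1.70 from P3 to 10 weeks and 0.03 over the whole span. Igf1 and Igfbp3 were the members that were lowest at P3 against both other ages, a pattern that 5.54% of all genes compared showed.

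Igfbp2 went the opposite way. Its product carries an integrin-binding motif and is a major IGF carrier of fetal blood. Igfbp2 (chromosome 1, 72871077 to 72899045) measured 16.7 FPKM in the embryo, 71.7 in the newborn and 20.6 in the adult. The newborn value stood above both others, with log2 differences of 2.04 into P3 and -1.75 out of it. It was the member that was highest at P3 against both other ages, as were 5.35% of all genes compared. Its percentile among all genes went from 69.2 to 91.7 and back to 69.3.

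Igfbp5 and Igfbp6 had by far their highest values in the adult. IGFBP5 binds extracellular matrix as well as IGF, and IGFBP6 differs from its relatives in preferring IGF2 over IGF1. Igfbp5 (chromosome 1, 72904639 to 72921439) stood at 32.8, 23.6 and 213 FPKM, a log2 difference of 3.12 from P3 to 10 weeks and of 2.66 from E18.5. Igfbp6 (chromosome 15, 101974617 to 101979943) stood at 14.0, 8.15 and 315 FPKM, a log2 difference of 5.11 from P3 and of 4.4 from E18.5. Both E18.5 and P3 values of each gene were far below its adult value. Igfbp6 had the widest span of the 10 genes, with its highest value at 38.7 times its lowest. It moved from percentile 46.3 at P3 to 98.0 at 10 weeks.

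Igfbp7 encodes a relative with low affinity for IGF that is deposited around vessels. It stood at 160, 93.9 and 337 FPKM, the largest value listed among the members at each age, though close to Igfbp4 at P3 (89.6) and to Igfbp6 at 10 weeks (315). It was higher at 10 weeks than at P3 (log2 difference 1.83). Against E18.5 the difference of 1.07 lay close to the threshold, and with median-of-ratios or upper-quartile scaling of the tables it fell to 0.80 and 0.78, so that this call was lost. The span listed for Igfbp7 (chromosome 5, 77739509 to 77837070) is also listed for Polr2b, an RNA polymerase subunit gene on the other strand. Polr2b itself stood at 27.5, 33 and 27.3 FPKM. Igfbp5, Igfbp6 and Igfbp7 were highest at 10 weeks against both other ages, as were 12.3% of all genes compared.

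Igfbp4, whose product is cut by the protease PAPP-A to free bound IGF, varied least among the binding proteins. It stood at 102, 89.6 and 157 FPKM (chromosome 11, 98902574 to 98913957), and its largest log2 difference was 0.80, from P3 to 10 weeks.

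Igfbp2 and Igfbp5 lie next to each other, 5593 bases apart in mm9, and the GRCm38 annotation has them on opposite strands with their ends facing. FPKM of Igfbp2 was 0.511 times that of Igfbp5 in the embryo, 3.04 times in the newborn and 0.0970 times in the adult, so the order of the neighbours turned over and back. The 250 bases before the RefSeq start (GRCm38.p6) of these genes and of Igfbp6 are shown because Igfbp2 was the member whose P3 value passed the threshold above both other ages, Igfbp5 is its neighbour and Igfbp6 had the widest span. Each is written 5′ to 3′ on the strand of its gene, at chr1:72824230-72824479 (plus strand), chr1:72874866-72875115 (minus strand) and chr15:102143936-102144185 (plus strand). Capitals mark the 6 letters of a GC box, GGGCGG, or of a TATA motif, TATAAA, found on either strand.
Igfbp2: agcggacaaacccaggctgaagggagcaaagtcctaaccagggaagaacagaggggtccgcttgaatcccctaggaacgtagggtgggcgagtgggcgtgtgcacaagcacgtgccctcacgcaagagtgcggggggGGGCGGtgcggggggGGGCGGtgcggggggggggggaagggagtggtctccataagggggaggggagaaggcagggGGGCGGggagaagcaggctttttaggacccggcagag
Igfbp5: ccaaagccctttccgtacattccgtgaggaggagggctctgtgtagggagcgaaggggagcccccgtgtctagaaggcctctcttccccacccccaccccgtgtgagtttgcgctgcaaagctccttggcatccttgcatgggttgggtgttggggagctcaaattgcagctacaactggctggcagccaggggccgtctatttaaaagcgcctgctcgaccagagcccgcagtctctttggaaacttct
Igfbp6: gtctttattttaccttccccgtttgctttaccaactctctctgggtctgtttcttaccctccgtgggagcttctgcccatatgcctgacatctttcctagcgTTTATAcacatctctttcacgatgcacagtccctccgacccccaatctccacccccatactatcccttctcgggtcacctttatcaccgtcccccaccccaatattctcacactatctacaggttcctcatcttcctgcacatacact
The Igfbp2 window held GGGCGG 3 times, with first letters 113, 98 and 37 bases before the start, and no TATAAA. The Igfbp5 window held neither. The Igfbp6 window held TATAAA once, on the opposite strand, 148 bases before the start, and no GGGCGG. Of 32817 RefSeq promoter windows of this length, 32.7% held GGGCGG and 12.4% held TATAAA on either strand, and the motifs share no letters in the windows shown. The windows of Igfbp2, Igfbp5 and Igfbp6 were 67.2%, 58.8% and 49.6% G and C, against a median of 52.4%. All 10 members had a window in the RefSeq table, and Igfbp2 had an additional start with neither motif. These matches describe the letters only, and binding of any factor was not measured.

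Set together, the binding protein genes changed in sum and in make-up. Their FPKM summed to 425 in the embryo, 317 in the newborn and 1144 in the adult. Igfbp7, Igfbp4 and Igfbp3 made up most of it at E18.5, with 37.6%, 24.0% and 23.4%. At P3 Igfbp2 had come up from 3.94% to 22.6% and Igfbp3 down to 9.59%. In the adult Igfbp6 held 27.6% and Igfbp5 18.6%, from 2.57% and 7.44% at P3, and Igfbp2 held 1.81%. Shares within one table are not touched by scaling between the ages. They do not weigh protein levels, and IGFBP7 binds IGF weakly. Without Igfbp7, the share of Igfbp6 at 10 weeks was 39.1% and that of Igfbp2 at P3 was 32.1%.

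**Figure D2:**
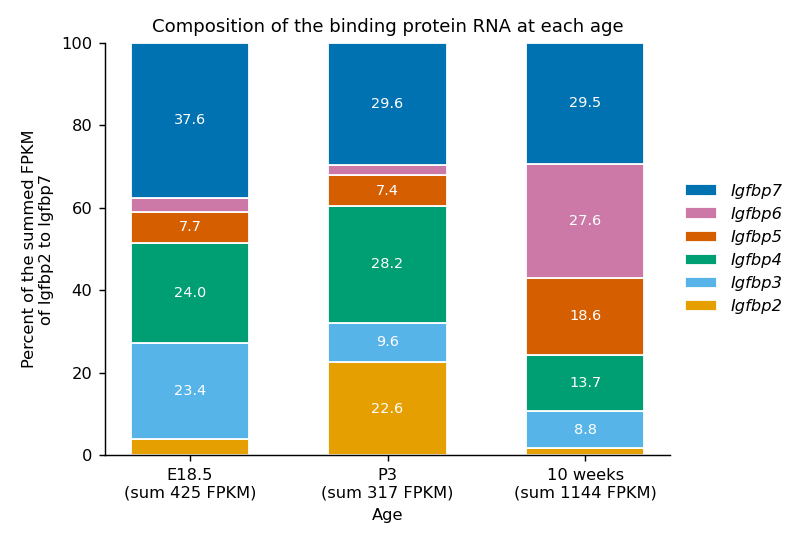
Share of each gene in the summed FPKM of Igfbp2 to Igfbp7 (vertical axis, percent) at each age (horizontal axis, with the sum under each bar), 1 averaged value per gene and age. Igfbp2 takes 22.6% at P3 against 3.94% and 1.81% at the other ages, and Igfbp6 takes 27.6% at 10 weeks against 3.29% and 2.57%.

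The order of levels followed from these courses. At E18.5 it ran Igfbp7, Igfbp4, Igfbp3, Igfbp5, Igf1, Igfbp2, Irs1, Igfbp6, Igf1r, Irs2. At P3 Igfbp2 stood in the third place and Igf1 (5.65 FPKM) was next to Igf1r (5.07) and Irs2 (5.06) at the bottom. At 10 weeks Igfbp7 (337 FPKM) and Igfbp6 (315) led, followed by Igfbp5, Igfbp4, Igfbp3, Igf1, Igfbp2, Irs1, Irs2 and Igf1r. Neighbours this close, and Igfbp4 and Igfbp3 at E18.5 (102 and 99.2 FPKM), cannot be ordered without a spread between animals.

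Counted over the 10 genes, Igfbp2 alone (1 gene) was higher after birth than before it and 2 (Igf1, Igfbp3) were lower, where 9.56% of all genes compared were higher and 9.42% lower. The median log2 difference of the members was -0.42, and that of all genes 0.03. From P3 to 10 weeks 5 members were higher (Igf1, Igfbp3, Igfbp5, Igfbp6, Igfbp7) and 1 was lower (Igfbp2), where 19.8% of all genes were higher and 9.98% lower. The medians were 1.25 for the members and 0.14 for all genes. From E18.5 to 10 weeks 3 members were higher (Igfbp5, Igfbp6, Igfbp7) and 0 lower, where 16.1% of all genes were higher and 6.92% lower. The medians were 0.64 and 0.22. The P3 value enters both the first and the following step with opposite sign, so an error in it would appear in both.

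Marker genes of other cell types moved between the same ages. From E18.5 to P3 the markers were lower for dermal fibroblasts in 7 of 8, white adipocytes in 7 of 8, skeletal muscle in 8 of 8, endothelium in 7 of 8 and macrophages in 4 of 7. Summed FPKM of these lists went from 3422 to 1247 for fibroblasts, 4463 to 1599 for adipocytes, 3927 to 328 for muscle, 197 to 63.9 for endothelium and 177 to 70.6 for macrophages. Pericyte and smooth muscle markers were lower in 0 of 8 (156 to 158 FPKM), and epidermal keratinocyte markers were higher in 5 of the 6 with an estimate at P3 (2835 to 11070 FPKM). Hair shaft markers were higher in 7 of 8 (33.6 to 614 FPKM), and proliferation markers in 0 of 8 (292 to 320 FPKM). Krt1 and Krt10 were listed at 0 at P3 as failed estimates and left out of these sums, and no other marker was listed at 0 at any age.

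From P3 to 10 weeks markers were higher for fibroblasts in 4 of 8 (to 4303 FPKM), adipocytes in 8 of 8 (to 6418 FPKM), muscle in 8 of 8 (to 18820 FPKM), endothelium in 5 of 8 (to 171 FPKM), pericytes and smooth muscle in 6 of 8 (to 365 FPKM) and macrophages in 7 of 7 (to 1318 FPKM). In the fibroblast sum Dcn went from 205 to 2217 FPKM, while Col1a1 (412 to 354 FPKM) and Twist2 (13.8 to 13.2 FPKM) did not rise. Keratinocyte markers were lower in 4 of 6 (to 2144 FPKM). Hair shaft markers were lower in 8 of 8 (to 23.8 FPKM) and proliferation markers in 8 of 8 (to 48.4 FPKM). Igf1 (-1.92, then 2.80) and Igfbp3 (-1.67, then 1.70) had the same signs as the list medians of fibroblasts (-1.42, then 1.55), white adipocytes (-1.44, then 2.66), endothelium (-1.54, then 1.35), macrophages (-1.20, then 3.52), muscle (-3.11, then 6.29) and pericytes and smooth muscle (-0.05, then 1.20). Igfbp2 (2.04, then -1.75) had the same signs as those of keratinocytes (1.45, then -1.60), hair shaft (4.54, then -4.51) and proliferation (0.19, then -2.57). Igfbp4 (-0.19, then 0.80), Igfbp5 (-0.46, then 3.12), Igfbp6 (-0.71, then 5.11) and Igfbp7 (-0.76, then 1.83) also had the signs of Igf1. So did Irs1 (-0.37, then 0.17), while Igf1r (0.24, then -0.06) had those of Igfbp2. Signs of differences this near 0 can turn with the scaling. With median-of-ratios scaling the adult step of Irs1 was -0.05, so Irs1 no longer had the signs of Igf1. In the adult step Igfbp6 lay beyond all list medians but that of muscle. The part of these cell types in the members' values was not tested.

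**Figure D3:**
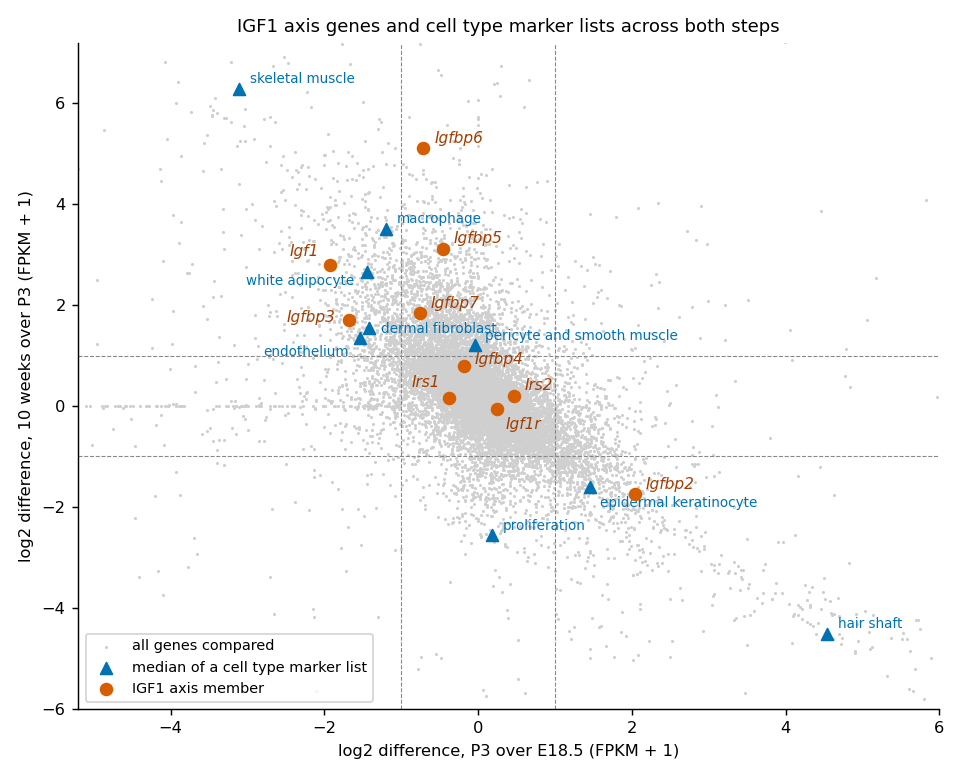
Log2 difference of FPKM + 1 from E18.5 to P3 (horizontal axis) and from P3 to 10 weeks (vertical axis) for the 10 members (orange), the medians of 9 cell type marker lists (blue triangles) and all 14653 genes compared (grey, 87 of them outside the axes); dashed lines mark the 2-fold threshold. Both axes share the P3 value, which by itself tilts the grey cloud; Igfbp6 stands at 5.11 on the vertical axis and Igfbp2 at -1.75.

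Of the other genes of the pathway, the sister ligand Igf2 had the largest log2 difference, -6.16 from E18.5 to 10 weeks. Igf2, the fetal growth factor, stood at 394, 88.5 and 4.52 FPKM, in a span that it shares with the antisense gene Igf2as. Its FPKM was 16.3 times that of Igf1 before birth and 15.7 times just after it, while at 10 weeks Igf1 was 10.00 times Igf2. The summed FPKM of both ligands was 419, 94.1 and 49.8. The summed binding proteins were 1.01, 3.37 and 23.0 times the summed ligands at the 3 ages. Against Igf1 alone the same sum was 17.5, 56.2 and 25.3 times as large. Igf2r, the scavenger receptor that takes IGF2 to lysosomes, stood at 21.0, 11.4 and 9.48 FPKM and was lower at 10 weeks than at E18.5 (-1.07), a call lost with a pseudocount of 5 (-0.84). Insr, the insulin receptor gene, stood at 6.42, 4.39 and 10.8 FPKM and was higher at 10 weeks than at P3 (1.13), a call lost with median-of-ratios scaling (0.92) and with a pseudocount of 5 (0.75). Ide, an insulin-degrading protease, had a P3 peak like that of Igfbp2, with 48.7, 186 and 47.8 FPKM.

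The pathway list held 50 genes beside the members, of which 46 reached 1 FPKM. Insrr, Igfbp1, Igfbpl1 and Irs4 did not. Of the 46, between E18.5 and P3 3 became higher and 6 lower (median log2 difference -0.16), 13 higher and 4 lower at 10 weeks than at P3 (median 0.19), and 8 higher and 8 lower at 10 weeks than at E18.5 (median 0.34). Over all genes the higher and lower shares were 9.56% and 9.42%, then 19.8% and 9.98%, then 16.1% and 6.92%. Many of these genes are low. With a pseudocount of 5 the counts were 2 lower in the first step, 7 higher in the following one and 3 higher and 5 lower over the whole span, and with either scaling 4 were higher over the whole span.

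Genes that carry or dampen the growth hormone signal, the classical input to Igf1, were higher in the adult in 6 of 7 cases against P3. Against E18.5, 1 of 7 (Socs2) was lower at P3. The shares of all genes were 19.8% and 9.42%. With a pseudocount of 5 these counts were 3 of 7 and 0 of 7, without the calls of Stat5a (0.73), Stat5b (0.99) and Socs1 (0.75) and the P3 call of Socs2 (-0.73). Ghr, the growth hormone receptor gene, stood at 43.6, 30.1 and 166 FPKM. Socs2, a growth hormone target that dampens its receptor, stood at 8.77, 3.28 and 17.7 FPKM, with log2 differences of -1.19 and 2.13. Its order of ages was that of Igf1, and also that of Ghr, Stat5b and Socs1. Jak2 and Stat5a were also highest at 10 weeks. Their E18.5 and P3 values were too close to be ordered (log2 differences -0.02 and -0.04). The share of all genes with this order was not counted. Socs3, a feedback inhibitor of cytokine receptors, stood at 3.52, 3.91 and 35.8 FPKM. The signal transducers Stat5a and Stat5b stood at 4.91, 4.75 and 11.1 FPKM and at 10.2, 7.62 and 20.2 FPKM. Socs1, another inhibitor of cytokine receptors, stood at 6.34, 3.68 and 9.58 FPKM. The adult calls of Stat5a and Socs1 were lost with median-of-ratios scaling (0.87 and 0.97), and that of Stat5a also with the upper quartile (0.97). Jak2 (11.5, 11.3 and 17.4 FPKM) passed in no comparison.

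Proteases and partners of the binding proteins were mixed. Htra1, a serine protease that cuts IGFBP5, was the most abundant of them with 55.9, 58.3 and 123 FPKM. Its adult calls were lost under both scalings (0.83 and 0.95 against P3). Pappa, the gene of PAPP-A, was low throughout (1.17, 0.958 and 0.739 FPKM). Its relative Pappa2 was lower at P3 (7.61, 1.91 and 1.90 FPKM), as was the metalloproteinase gene Adam12 (14.1, 4.81 and 3.20 FPKM). With a pseudocount of 5 both calls were lost (-0.87 and -0.96). Stc2, an inhibitor of PAPP-A, stood at 4.01, 1.88 and 10.5 FPKM, and Igfals, the acid-labile subunit that the liver chiefly makes, at 1.26, 0.865 and 5.08 FPKM.

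Of 19 PI3K, AKT and mTOR genes, 2 became higher and 1 lower between E18.5 and P3, 1 was higher and 0 lower at 10 weeks than at P3, and 0 passed between E18.5 and 10 weeks. The shares of all genes given above were 9.56% and 9.42% in the first step, 19.8% and 9.98% in the following one and 16.1% and 6.92% over the whole span, and no difference from them was tested. Akt1, an AKT kinase gene, stood at 73.6, 68.7 and 62.7 FPKM. Pik3r1, a regulatory subunit of PI3-kinase, had a P3 trough (32.5, 15.5 and 42.1 FPKM), though with a pseudocount of 5 its call at P3 against E18.5 was lost (-0.87). The catalytic subunit gene Pik3cb (5.04, 17.5 and 11.1 FPKM) and the transcription factor gene Foxo3 (6.97, 19.0 and 9.43 FPKM) were higher in the newborn than before birth. Among adaptors, Grb10, an inhibitor of both receptors, was lower at P3 (76.0, 14.6 and 25.8 FPKM), and Grb14 and Irs3 were higher in the adult (4.58, 3.64 and 12.5 FPKM, and 1.43, 0.443 and 4.24 FPKM). Against E18.5 the call of Irs3 was lost under both scalings (0.91 and 0.90) and with a pseudocount of 5 (0.52), and that of Grb14 with a pseudocount of 5 (0.87). Against P3 Irs3 lost its call with a pseudocount of 5 (0.76).

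**Figure D4:**
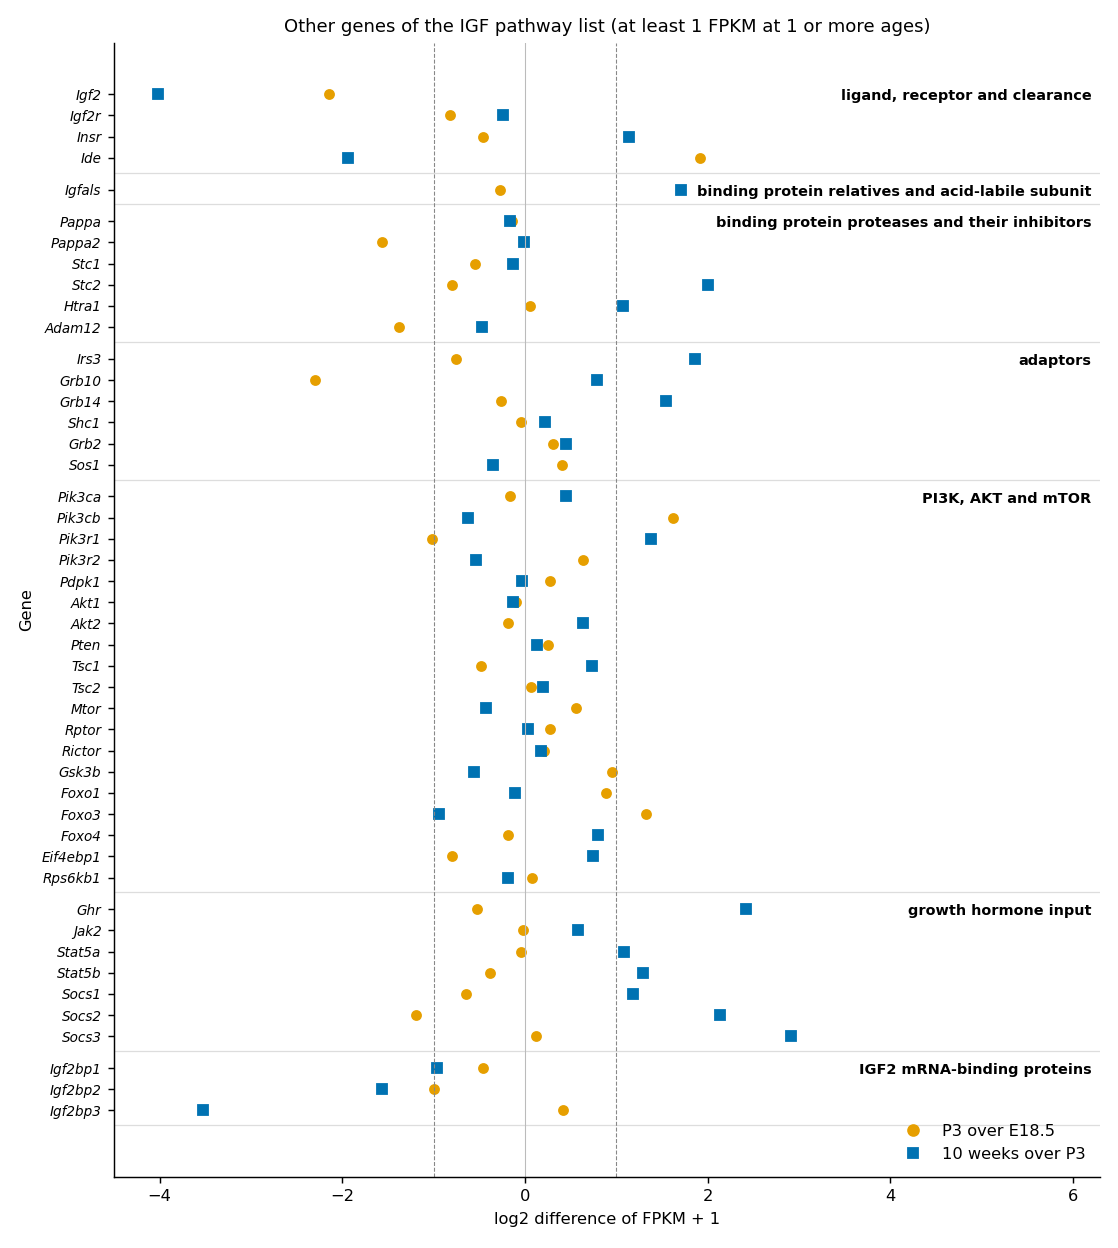
Log2 differences of FPKM + 1 (horizontal axis) for 46 other pathway genes with at least 1 FPKM (vertical axis, grouped by role), from E18.5 to P3 (orange circles) and from P3 to 10 weeks (blue squares), with dashed lines at the 2-fold threshold. In the growth hormone group 6 of 7 squares lie beyond the right line, while Igf2 lies at -2.14 and -4.02.

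Genes with a course like that of each member were sought over the 3 ages by the distance of log2(FPKM + 1), centred over the ages, among 11614 genes of at least 5 FPKM. With 3 points per gene, likeness is a weak description. For Igf1 the nearest were Maob, a monoamine oxidase gene (13.6, 3.14 and 28.8 FPKM, distance 0.11), Gmfg (22.0, 4.48 and 37.3 FPKM) and Srgn, the proteoglycan gene serglycin of blood and immune cell granules (35.0, 9.28 and 75.1 FPKM). Within a distance of 0.25 of Igf1 there were 17 genes, and of Igfbp6 there was 1, Ifi27l2a (39.1, 22.8 and 769 FPKM). For Igfbp2, with 59 genes that near, the zinc exporter gene Slc30a1 came first (12.3, 52.0 and 14.8 FPKM), then Esyt3 and Ezr. For Igfbp3, with 69, they were Iffo1, Fam131a and Smoc1. For Igfbp5, with 54, they were H2-Gs10, whose near-identical relatives make it uncertain, the small heat shock protein gene Cryab (34.6, 25.1 and 234 FPKM) and the muscle chloride channel gene Clcn1. Clcn1 stood at 0.531, 0.0529 and 8.66 FPKM. Its E18.5 and P3 values lay below the pseudocount of 1, so its likeness depends on that setting. For Igfbp7, with 152, they were Pik3cg, Rbpms and Tmem150a. Igfbp4, Irs1, Irs2 and Igf1r had 775, 836, 912 and 2026 genes within that distance, too many to single any out.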

How the data were processed

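Whole skin RNA of FVB mice at E18.5, P3 and 10 weeks was sequenced from TruSeq libraries made from 1 ug of Trizol-extracted total RNA, per the labels' protocols. The authors deposited FPKM values, 1 averaged column per age, per the file headers. TopHat2 2.0.7, Cufflinks 2.1.1 and mm9 are named in the submitters' processing notes; gene annotation, strand setting, depth and shared-read handling were not given in the sources. The values were joined on gene symbol with pandas 2.3.3. Values of 0 with a failure or excess-data status (3 at E18.5, 7 at P3, no member) were treated as missing. Differences, the 2-fold threshold and the filter were as stated above, and the calling code was tested on simulated data. Since the tables count starts from 0 (end minus start equalled the RefSeq length for 219 of 523 microRNA genes, and 1 more for 3), 1 was added to starts. Promoters were used in GRCm38.p6 and no coordinates were converted. All 10 members, the pathway genes called or most abundant in their role, and the 3 genes nearest to a member were named. The result of 1 gene of the pathway list is not reported here, and the list was counted without it. Adgre1 was found under its older symbol Emr1. Members and lists were chosen with earlier results of these data known. Alternatives were pseudocounts of 0.1 and 5, 2 scalings, no filter and a minimum of 5 FPKM; plain FPKM ratios were added after the data were seen.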

Additional observations from a re-analysis of the deposited data

How the results depend on the processing

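Of the called differences of members, that of Igfbp7 at 10 weeks against E18.5 was the one lost under the 7 alternatives. Kept directions say nothing here. A pseudocount or a filter cannot turn a sign, and the scaling shifts given below were smaller than the threshold. The other counts of members stayed within 1.5 times. Median-of-ratios scaling shifted log2 ratios by -0.03, -0.24 and -0.27 for P3 against E18.5, 10 weeks against P3 and 10 weeks against E18.5, and the upper quartile by -0.18, -0.11 and -0.30. Pathway list counts that moved were those with a pseudocount of 5, namely 2 lower at P3 against E18.5, 7 higher at 10 weeks against P3, and 3 higher and 5 lower at 10 weeks against E18.5, and the last of these comparisons under either scaling, with 4 higher. Over all genes, the step from E18.5 to P3 had 1401 higher and 1380 lower; a pseudocount of 5 gave 842 and 626, and 2155 and 2190 were lower with a pseudocount of 0.1 and with plain ratios. With the pseudocount of 5, 1596 were higher and 898 lower at 10 weeks than at P3 (2909 and 1462 otherwise), and 1274 and 561 against E18.5 (2358 and 1014 otherwise). Among called genes, the percentage in the higher direction went from 50.4% to 39.2% with the upper quartile at P3 against E18.5, from 66.6% to 55.8% with the median of ratios at 10 weeks against P3, and from 69.9% to 58.4% (median of ratios) and 57.1% (upper quartile) at 10 weeks against E18.5. No replicate could be left out and no paired analysis was possible because each age has 1 value. The unknown depth leaves the precision of low genes such as Igf1r and Irs2 unstated.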

Other observations

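The IGF2 mRNA-binding proteins, named for a transcript they hold and abundant in fetal tissues, were all lower at 10 weeks than at E18.5. Of all genes compared, 6.92% were lower between these ages. Igf2bp1 stood at 1.71, 0.972 and 0.0103 FPKM, Igf2bp2 at 12.6, 5.85 and 1.32 FPKM, and Igf2bp3 at 10.8, 14.7 and 0.360 FPKM. Igf2bp3 thus had its largest value at P3, though its log2 difference of 0.42 from E18.5 was under the threshold. Igf2 had by then gone from 394 to 88.5 FPKM. The call of Igf2bp1 was lost with a pseudocount of 5. At 10 weeks the values of Igf2bp1 and Igf2bp3 carried the status NOTEST, while the other values of these Igf2bp genes carried OK.

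Igfbp1 and Igfbp3 are neighbours on chromosome 11, 3546 bases apart in mm9, as Igfbp2 and Igfbp5 are on chromosome 1. Igfbp1, a binding protein chiefly of the liver, was at 0.409 FPKM at E18.5 and listed at 0 at both later ages, while Igfbp3 stood at 30.4 FPKM or more at each age. Next to Igfbp6, the cholesterol esterification gene Soat2 starts 1062 bases further on and stood at 0.825, 0.591 and 0.933 FPKM, while Igfbp6 went from 8.15 FPKM at P3 to 315 at 10 weeks. Spryd3, 7970 bases away on the other side, stood at 11.9, 19.3 and 18.4 FPKM.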
